A study of Mus musculus with 22 samples.

Results

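The promoters described here carried a G-quadruplex peak in both control libraries and in neither TERRA-depleted library. They were chosen by the G4 peak lists themselves: a transcription start site (TSS) was taken when a G4 peak lay within 1 kb of it in both scramble KD lists and no G4 peak did so in either TERRA KD list. The TSS of a gene was its most upstream RefSeq start (NM_ or NR_ transcripts, GRCm38, chromosomes 1 to 19 and X). Of 26089 TSS, 1240 met this rule, which is 4.75% of them. They were set against the 2398 TSS that kept a G4 peak in all 4 lists. The cells were mouse embryonic stem cells of a single hybrid line (CAST/Ei x 129/Sv/Jae), harvested 12 h after delivery of an LNA gapmer, a short modified antisense oligonucleotide that directs cleavage of its RNA target. The scramble KD group received a scrambled gapmer and the TERRA KD group a gapmer against TERRA, so both groups shared the delivery and differed in the target. Each of G4, ATRX, H3K9me3 and ATAC was measured in 2 libraries per group. No measure of TERRA itself entered the work described here.

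G-quadruplexes are stacked guanine tetrads that form in single strands with closely spaced runs of guanine, and promoters of active genes are a known site of them. They are mapped by immunoprecipitating chromatin with an antibody that recognises the fold. TERRA is the G-rich RNA transcribed from subtelomeric regions into the telomere repeats, which also binds chromatin elsewhere. ATRX is a chromatin remodeller that, with DAXX, places histone H3.3 at repeats and is known to bind G-quadruplex sequence. H3K9me3 is the histone mark of heterochromatin, and ATAC reads out DNA that is accessible to a transposase.

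The sequences under the lost peaks show what the antibody peak covered. A motif of 4 runs of at least 3 G, separated by loops of 1 to 7 bases, was searched on both strands of the reference genome (RefSeq, GRCm38). Among the 10 members with the strongest G4 peaks, the scramble KD replicate 1 peaks of Tspyl3, Rtn2, the pair Mir9-3 and Gm51285, and Kdelr1 held such a motif of at most 30 bases. Those of Cd5, Rhbdl2, Col5a3 and Zcwpw1 held none, and no sequence is given for Synpo. The match nearest to the peak summit is given below, 5′ to 3′ on the strand with the G runs, and capitals mark the runs of at least 3 G. Matches at Terf2, Cxcl14, H3f3a and Hira are added because these genes belong to the gene lists described further on.
Tspyl3, chr2:153225224-153225245, + strand, the template strand of the gene, in the coding part of exon 1: GGGGacacGGGGccGGGccGGG
Rtn2, chr7:19282947-19282974, + strand, the coding strand, in intron 1: GGGctcgaGGGagagccGGGaagccGGG
Mir9-3 and Gm51285, chr7:79505595-79505615, + strand, past the end of Mir9-3 and upstream of Gm51285: GGGttGGGGGcaGGGaacGGG
Kdelr1, chr7:45872971-45872997, − strand, the template strand, in the untranslated part of exon 1: GGGcaGGGctgagctGGGtGGGGGGGG
Terf2, chr8:107096394-107096410, − strand, the coding strand, in the coding part of exon 1: GGGGaGGGcGGGGaGGG
Cxcl14, chr13:56296383-56296407, − strand, the coding strand, in the untranslated part of exon 1: GGGtGGGcggaGGGaagctgtGGGG
H3f3a, chr1:180813178-180813201, + strand, the template strand, in intron 1: GGGGtcccGGGaaGGGGcagcGGG
Hira, chr16:18876664-18876689, − strand, the template strand, upstream of the TSS: GGGGcGGGGctgcgtcGGGGGcGGGG

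Stretches of 200 bases from 2 peaks without the motif are shown for contrast, on the strand of the gene, with runs of at least 3 G or 3 C in capitals. At Col5a3 the stretch ended at the base before the TSS, and its G and C runs were spread over both strands. At Cd5 it lay upstream of the TSS (its centre at −1328 bases) and opened with a long TG repeat, followed by other sequence. There the 893-base peak reached into the 1 kb window only by its edge.
Col5a3, chr9:20815068-20815267, − strand: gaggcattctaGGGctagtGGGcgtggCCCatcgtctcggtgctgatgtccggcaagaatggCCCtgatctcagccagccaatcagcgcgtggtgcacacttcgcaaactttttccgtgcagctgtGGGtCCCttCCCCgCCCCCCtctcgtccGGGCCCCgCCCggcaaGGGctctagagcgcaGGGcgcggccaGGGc
Cd5, chr19:10740203-10740402, − strand: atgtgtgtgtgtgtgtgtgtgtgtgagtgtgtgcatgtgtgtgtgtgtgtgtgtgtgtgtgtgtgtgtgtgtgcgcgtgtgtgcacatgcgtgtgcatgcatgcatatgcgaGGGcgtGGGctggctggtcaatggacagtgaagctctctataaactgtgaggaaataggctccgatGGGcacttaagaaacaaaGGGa

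The 4 G4 lists differed in depth and in how they met the TSS, which bears on every result below. The depth ran from 2961038 tags in scramble KD replicate 1 to 24588605 in scramble KD replicate 2. A G4 peak lay within 1 kb of 10784 and 16781 TSS in the scramble KD lists, of 12704 in TERRA KD replicate 1 and of 5791 in TERRA KD replicate 2. TERRA KD replicate 2 stood apart: with 224757 peaks it was longer than the replicate 1 lists of both groups, but it held the fewest TSS. Within replicate 1, 2116 of the 10784 scramble KD TSS (19.6%) had no G4 peak after TERRA KD and 4036 other TSS had one only after it. Within replicate 2, 11425 of 16781 (68.1%) had none and 435 were found only after TERRA KD. Depths of the other assays were 4104486 to 15506154 tags for ATRX, 5435286 to 13898785 for H3K9me3 and 5976014 to 7883648 for ATAC. Where a TSS had no peak, enrichment may have been present below what that library could show.

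Of the 9083 TSS with a G4 peak in both scramble KD lists, 1240 (13.7%) had lost it in both TERRA KD lists, 2398 (26.4%) had kept it in both, 5240 (57.7%) had lost it in replicate 2 only and 205 (2.26%) in replicate 1 only. The opposite pattern, a G4 peak in both TERRA KD lists and neither scramble KD list, was found at 65 TSS, or 0.249% of all TSS, against 4.75% for the loss. These shares are the rule itself and are given as a description. Members were not all separate regions: 329 of them (26.5%) lay within 2 kb of another member, and their strongest peaks were 1075 distinct peaks in scramble KD replicate 1 and 1079 in replicate 2.

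The members' G4 peaks were weaker than those of the kept TSS in the scramble KD lists that chose both classes. In scramble KD replicate 1 the strongest peak within 1 kb of a member held a median of 6 tags (quartiles 4 and 7), with a fold enrichment of 10.8, against 8 tags and 13.6 at kept TSS. In replicate 2 the medians were 33 tags and a fold of 4.98 at members, against 79 tags and 7.02 at kept TSS. Ranked within their own list, where 100 is the strongest peak, members sat at a median percentile of 46.6 in replicate 1 and 48.5 in replicate 2, and kept TSS at 67.4 and 90.8. A −log10 p of at least 5 in both scramble KD lists was reached at 131 of 1240 members and at 1094 of 2398 kept TSS. The share of TSS that lost G4 in both replicates was lower for stronger peaks: 21.5% of the weakest quartile of scramble KD replicate 1 peaks, then 17.5%, 11.3% and 4.32% of the strongest quartile. Ranked by replicate 2, these shares were 23.6%, 16.9%, 9.91% and 4.18%.

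**Figure D1:**
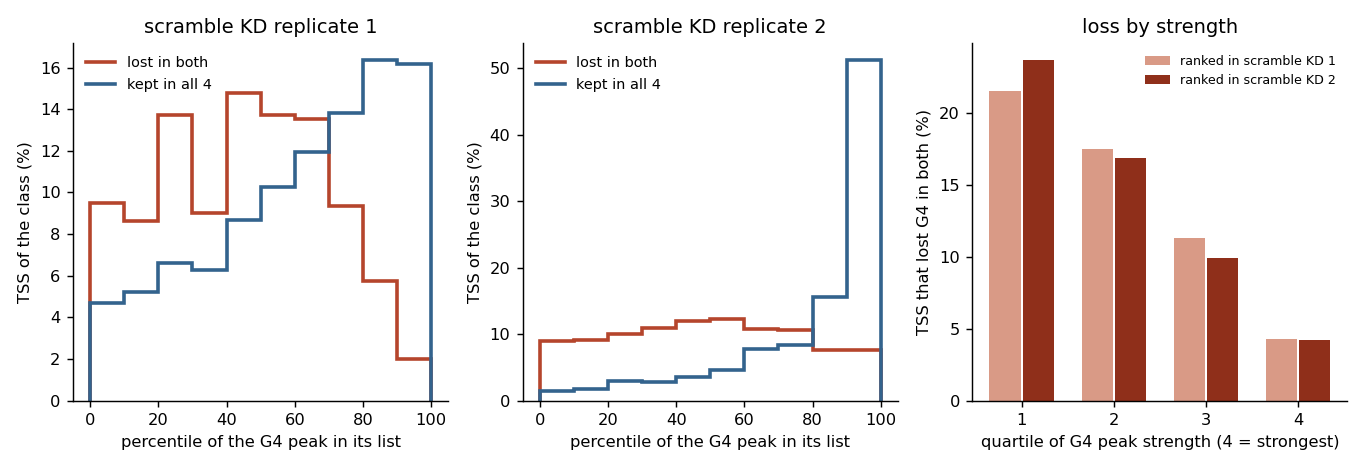
Strength of the scramble KD G4 peaks. Left and middle, percent of TSS of each class (y) by percentile of the strongest G4 peak within 1 kb in its own list (x; 100 is the strongest), for TSS that lost G4 in both replicates (n = 1240) and that kept it in all 4 lists (n = 2398); right, percent of the 9083 TSS with G4 in both scramble KD lists that lost it in both replicates, by quartile of peak strength. The share falls from 21.5% to 4.32% (replicate 1 ranks) and from 23.6% to 4.18% (replicate 2 ranks).

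The members with the strongest G4 signal ranged from immune and collagen genes to a microRNA locus, and several had a TERRA KD peak just past the limit. Cd5, a surface receptor of T cells and B-1 cells, led with 16 tags (32.5-fold) in scramble KD replicate 1 and 96 tags (11.9-fold) in replicate 2. Tspyl3, of the TSPY-like family, had 11 and 97 tags. Rtn2, a reticulon that shapes the endoplasmic reticulum, had 14 and 82. Kdelr1, the receptor that returns proteins from the Golgi to the endoplasmic reticulum, had 10 and 256. Kdelr1 thus had the most replicate 2 tags of the 10, at the 99.3rd percentile, but its replicate 1 peak stood only at the 83.4th. Its replicate 2 fold of 7.66 was below the 11.9 of Cd5. The summit of that Kdelr1 peak lay outside the window, at −3246 bases from the TSS. Mir9-3, a locus of the neuronal microRNA miR-9, shared its peak of 16 and 88 tags with Gm51285, a microRNA gene on the opposite strand. The others were Synpo, an actin-binding protein of podocytes and dendritic spines, Rhbdl2, an intramembrane protease, Col5a3, a collagen V chain, and Zcwpw1, a reader of histone H3 methylation in meiosis. In 5 of these 10 a TERRA KD G4 peak lay within 1.5 kb, at 1050 bases for Col5a3, 1060 for Zcwpw1, 1136 for Cd5, 1302 for Kdelr1 and 1426 for Synpo.

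Around the limit, Gm36183 entered with a scramble KD peak 999 bases away and Casp2, a caspase, with one 998 bases away. Vmn2r4, a vomeronasal receptor, with a peak at 1001 bases, and Arap1, a GTPase-activating protein, at 1005 stayed out. On the TERRA KD side, Mir129-2 and Trappc6a, a trafficking complex subunit, entered with the nearest TERRA KD peak 1001 bases away, while Rpl7, a ribosomal protein, with one at 998 bases stayed out. Over all members, the nearest G4 peak of either TERRA KD list lay at a median of 3336 bases (quartiles 1993 and 6260). It was within 1.5 kb at 184 members and over 5 kb away at 406. At 108 of the 1240 members, the strongest scramble KD peak itself shared a base with a TERRA KD peak that ended outside the window. The members farthest from any TERRA KD G4 peak were 1700003C15Rik, a non-coding RNA (56601 bases), Gm16958, another (37531), Ube2e3, a ubiquitin-conjugating enzyme (33209), Nox4, an NADPH oxidase (32614), and Rad21, the cleavable subunit of cohesin (32155).

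**Figure D2:**
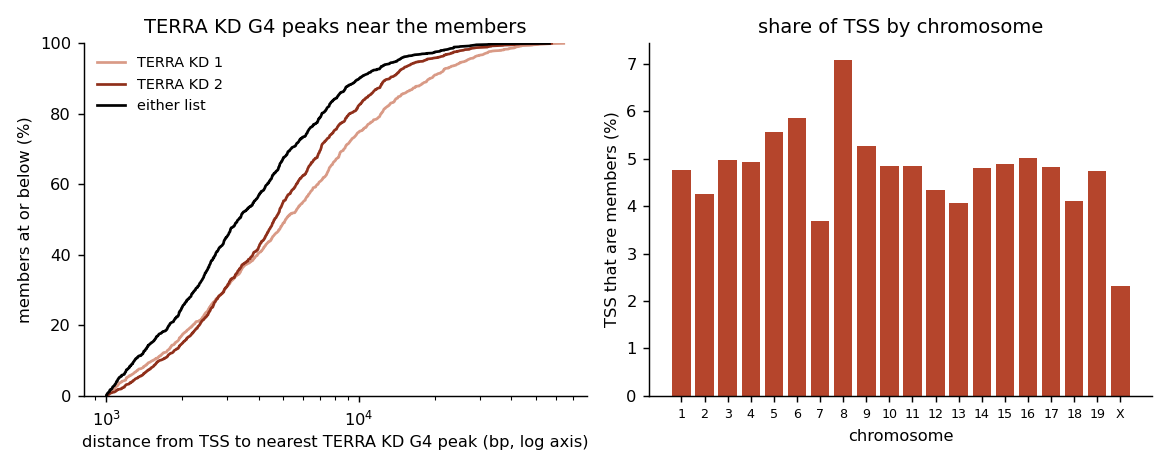
Left, cumulative percent of the 1240 members (y) by distance from the TSS to the nearest G4 peak of each TERRA KD list and of either list (x, bp, log axis); all start above 1 kb by the rule, and the median for either list is 3336 bases. Right, percent of the TSS of each chromosome that are members; chromosome 8 is highest at 7.08% and X lowest at 2.31%.

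The summit of the strongest lost G4 peak lay downstream of the TSS in most members. The median was 180 bases into the gene in scramble KD replicate 1 and 248 in replicate 2. The medians at kept TSS were similar, at 145 and 228 bases. In replicate 1, 28.2% of the members' summits were upstream, 31.9% in the first exon and 39.8% beyond it. At kept TSS these shares were 36.9%, 28.5% and 34.6%. Members' summits were also closer to the start: 47.2% lay within 250 bases of it in replicate 1, against 38.6% at kept TSS, and 29.4% against 23.1% in replicate 2. The peaks were shorter, with a median of 621 bases against 683 in replicate 1 and 1066 against 1955 in replicate 2, so a difference in position moved together with a difference in peak length.

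Members were GC-rich promoters with a CpG content far above that of kept TSS. Over the 2 kb window, the median GC content was 54.4% at members and 54.8% at kept TSS, against 50.9% over all TSS. CpG dinucleotides were at a median of 0.637 of the number expected from base composition at members (quartiles 0.498 and 0.738) and at 0.366 at kept TSS (0.231 and 0.577), against 0.440 over all TSS. The TSS that lost G4 in replicate 2 only were near the members in this measure, at 0.664. The G4 motif was present in 69.4% of members' windows, 72.8% of kept, 81.2% of those lost in replicate 2 only, 55.1% of all TSS windows of this length and 25.8% of windows without a G4 peak in any list. It lay on the coding strand in 50.5% of members and on the template strand in 41.4%, both counts including windows with matches on both strands, and in 53.5% and 44.7% of kept TSS. Inside the peak itself, 56.5% of members' replicate 1 peaks and 57.4% of kept TSS' peaks held the motif. In replicate 2 the shares were 62.0% and 73.6%, with the longer peaks at kept TSS. These are descriptions over TSS, which are not replicates, and a match says only that the letters are there.

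**Figure D3:**
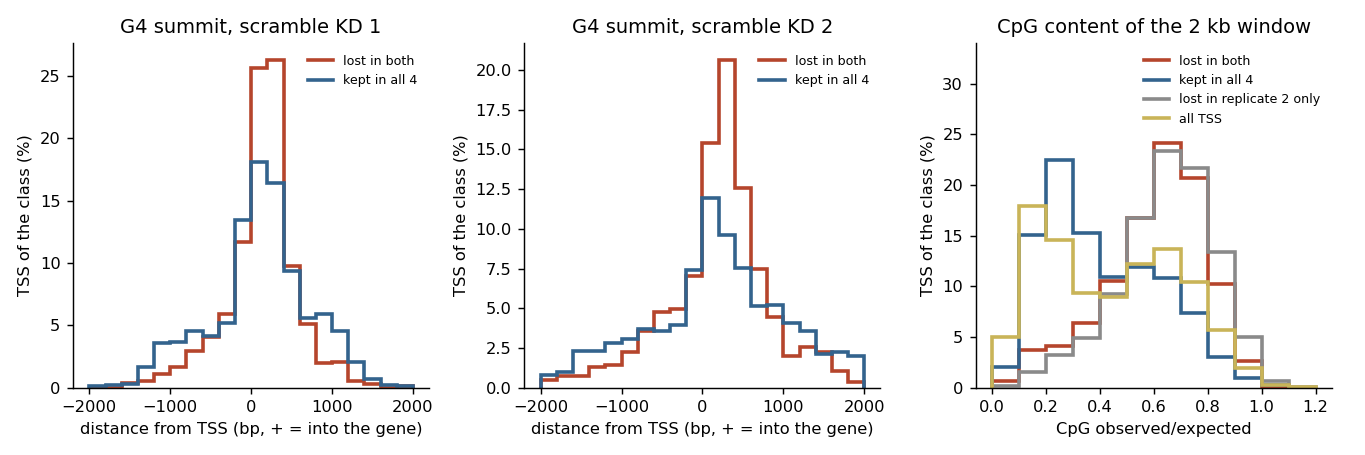
Left and middle, percent of TSS (y) by position of the G4 summit relative to the TSS (x, bp, positive into the gene, bins of 200 bp; summits beyond the range are not drawn) in each scramble KD list, for members and kept TSS. Right, percent of TSS by ratio of observed to expected CpG in the 2 kb window, with the TSS that lost G4 in replicate 2 only and all TSS; the medians are 0.637 at members, 0.366 at kept TSS and 0.664 at TSS lost in replicate 2 only.

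Members were mostly protein-coding, at 1098 of 1240 (88.5%), against 78.4% of kept TSS and 80.2% of all TSS. Long non-coding RNAs made up 9.03% of members, 11.4% of kept and 12.7% of all TSS, and microRNAs 1.69%, 8.09% and 4.71%. A divergent start, on the opposite strand within 1 kb upstream, accompanied 18.1% of members against 6.26% of kept and 10.4% of all TSS. Hira and Mrpl40, a mitochondrial ribosomal protein, were such a pair among the members. By chromosome, the members' share of TSS ran from 2.31% on X and 3.68% on 7 to 7.08% on 8. Set against the TSS with G4 in both scramble KD lists, X was at 13.5% and chromosome 8 at 12.5%, both close to the 13.7% of all chromosomes. Near telomeres, within 5 Mb of the distal end of a chromosome, lay 6.21% of members, 5.96% of kept and 5.26% of all TSS. Among the TSS with G4 in both scramble KD lists the share was 6.50%, so members were not above it.

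Accessible chromatin marked the members in every ATAC library and changed after TERRA KD by less than the scramble KD replicates differed. An ATAC peak lay within 1 kb of 90.5% and 92.9% of members in the scramble KD libraries and of 92.6% and 93.3% in the TERRA KD libraries. At kept TSS the shares were 51.5% and 61.0%, then 59.8% and 61.8%. Members thus exceeded kept TSS by 31.5 to 39.0 percentage points in 4 of 4 libraries, a mean of 33.8 (two-sided exact sign-flip test, p = 0.125, the smallest that 4 libraries allow). The change at members was 1.25 points (exact permutation test, p = 0.667), with 1.83 points between the means over all TSS behind it (61.7% and 63.5%).  The change at members minus that at kept TSS was −3.34 points (exact permutation test, p = 0.667). With 2 libraries against 2, no p below 0.333 was possible.

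The gap in accessibility depended on which G4 replicate defined the classes. With members and kept TSS defined on G4 replicate 1 alone, the difference was 2.39 points, and on replicate 2 alone it was 37.9 points. The TSS that had lost G4 in replicate 2 only were as often accessible as the members, at 88.4%, 93.1%, 91.4% and 93.4% over the same 4 libraries, a mean difference of 0.735 points (exact sign-flip test over 4 libraries, p = 0.500). At the TSS that had lost G4 in replicate 1 only, 52.7% to 59.0% had an ATAC peak, near the kept TSS. The difference from kept TSS was present at every G4 strength. In the quartile with the strongest scramble KD replicate 2 peaks, 73.7% and 78.9% of 95 members and 42.0% and 52.2% of 1230 kept TSS were accessible in scramble KD. In the weakest quartile it was 94.4% and 95.9% of 537 members and 68.8% and 75.6% of 250 kept TSS.

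Where ATAC peaks were present in all 4 lists, they also ranked higher at members. This was so at 1104 of 1240 members (89.0%) and 1141 of 2398 kept TSS (47.6%). The median percentile of the strongest peak at members was 83.2 and 88.6 for scramble KD, then 87.0 and 89.6 for TERRA KD, against 61.9, 72.4, 72.5 and 75.6 at kept TSS. The mean difference was 16.5 percentile points, higher in 4 of 4 libraries (exact sign-flip test, p = 0.125). Against TSS lost in replicate 2 only it was 7.36 (4 of 4 libraries, p = 0.125, exact). Over all TSS with ATAC in all 4 lists the medians were 79.1, 84.8, 83.5 and 86.2. The rank at members changed by 2.35 points after TERRA KD (exact permutation test, p = 0.667), less than the difference between the scramble KD replicates. In the lists as a whole, 0.241% of TSS lost an ATAC peak in both replicates and 0.602% gained one. Of the 1240 members 1 (0.0806%) lost and 3 (0.242%) gained one, and of kept TSS 0.250% lost and 1.25% gained one. A gain required that neither scramble KD list held an ATAC peak there. Few members met this, as 90.5% and 92.9% of them had such a peak. Mov10l1, an RNA helicase of the germline piRNA pathway, and the non-coding Gm45916 and Gm30794 were the members that gained one. No ATAC peak in any list was found at 68 of 1240 members, Cd5 among them, and at 752 of 2398 kept TSS.

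ATRX peaks were listed at a larger share of members in both TERRA KD libraries than in either scramble KD library, and kept TSS showed a difference of like size. They lay within 1 kb of 0.806% and 0.161% of members (10 and 2 TSS) in the scramble KD libraries, and of 10.9% and 6.53% (135 and 81) after TERRA KD. The groups did not overlap. The difference was 8.23 percentage points (exact permutation test, p = 0.333, the smallest possible). At kept TSS the shares were 1.21% and 0.834%, then 9.38% and 7.92%, a difference of 7.63 points. Over all TSS they were 1.07% and 0.590%, then 8.25% and 4.85%. The difference at members minus that at kept TSS was 0.594 points, positive in replicate 1 (1.91) and negative in replicate 2 (−0.718; exact permutation test, p = 1). The level at members minus that at kept TSS averaged −0.241 points (exact sign-flip test, p = 0.750), and turned positive under several other settings. The length of the lists moved with this result: 7242 and 13554 ATRX peaks were listed for the scramble KD libraries, against 41114 and 21599 for TERRA KD. With the same number of top-ranked ATRX peaks taken from each list the difference at members was 0.847 points, and with peaks of −log10 p of at least 5 it was 0.0403 points. The ATRX peaks at members were weak: a median of 5 tags in TERRA KD replicate 1 and 10 in replicate 2, with −log10 p of at least 5 at 1 and 0 members, against 25 and 19 kept TSS.

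An ATRX peak gained in both replicates was rare at members, at 8 of 1240 (0.645%), against 0.713% of all TSS and 1.38% of kept TSS (33 of 2398). No member lost ATRX in both replicates, nor did any kept TSS, and over all TSS 0.00767% did. An ATRX peak in at least 1 TERRA KD library was found at 208 members (16.8%), 15.7% of kept TSS and 12.3% of all TSS, and one in both at 8 members (0.645%), 39 kept TSS (1.63%) and 0.767% of all TSS. Among them were Maea, a subunit of the CTLH ubiquitin ligase, Rnf122, a RING-type ubiquitin ligase, Mafk, a small Maf transcription factor, Bola3, an iron-sulfur cluster protein of mitochondria, H2-Ke6, a steroid dehydrogenase gene of the major histocompatibility region, and the overlapping microRNAs Gm51291 and Mir3083. The ATRX peaks of these genes held 4 to 9 tags in TERRA KD replicate 1 and 9 to 20 in replicate 2. At Maea these were 9 tags (13.6-fold) and 9 tags (4.26-fold), and at Bola3 5 tags (8.13-fold) and 15 tags (4.58-fold). The members' strongest scramble KD replicate 1 G4 peak shared a base with an ATRX peak of TERRA KD replicate 1 at 72 of 1240 members (5.81%). For ATRX peaks of TERRA KD replicate 2 it was 30 (2.42%). At kept TSS these shares were higher, at 6.09% and 5.46%. For the longer replicate 2 G4 peaks, which can reach past the 1 kb window, the counts at members were 104 (8.39%) and 58 (4.68%). Kept TSS were again higher, at 10.4% and 10.3%.

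H3K9me3 peaks were scarce at members and showed no shift after TERRA KD beyond the spread between libraries. They lay within 1 kb of 2.5% and 0.887% of members with the scramble gapmer and of 2.34% and 1.29% after TERRA KD, a change of 0.121 points (exact permutation test, p = 1). At kept TSS the shares were 3.67% and 2.29%, then 2.88% and 3.09%, and over all TSS 2.29% and 1.96%, then 2.36% and 2.07%. Members were below kept TSS in 4 of 4 libraries, by a mean of 1.23 points (−1.23, exact sign-flip test, p = 0.125), and the change at members minus that at kept TSS was 0.121 points (exact permutation test, p = 1). The level difference was 0.0393 points with the G4 rule on replicate 1 alone and 0.323 points against TSS lost in replicate 2 only, opposite in direction to the difference above. The replicates of this assay also differed in peak length: peaks had a median length of 2405 and 3125 bases in replicate 1 and of 491 and 515 in replicate 2. No peak was lost in both replicates at a member, against 0.0575% of all TSS, and 1 member (0.0806%) gained one, against 0.123%. In all, 1190 of 1240 members had no H3K9me3 peak in any list, a count not made for kept TSS or all TSS.

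H3K9me3 was present in all 4 lists at 4 members (0.323%), against 20 kept TSS (0.834%) and 0.322% of all TSS. Prpf39, a splicing factor of the U1 particle, had peaks of 735 and 16 tags with the scramble gapmer, then 886 and 11 with the TERRA gapmer. Klhl9, a substrate adaptor of the CUL3 ubiquitin ligase, had 108 and 6 tags, then 678 and 14. Both also had an ATAC peak in every list. The other such members were the non-coding RNAs Gm40962, with no ATAC peak, and Gm29243, with ATAC peaks at the 92.6th to 99.8th percentile. Maea had a long H3K9me3 peak in both replicate 1 lists (650 and 706 tags) and none in replicate 2. Of the 1240 members, 872 had ATAC in all 4 lists and neither ATRX nor H3K9me3 in any. This combination was not counted at kept TSS or over all TSS, so it is not shown to be particular to members.

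**Figure D4:**
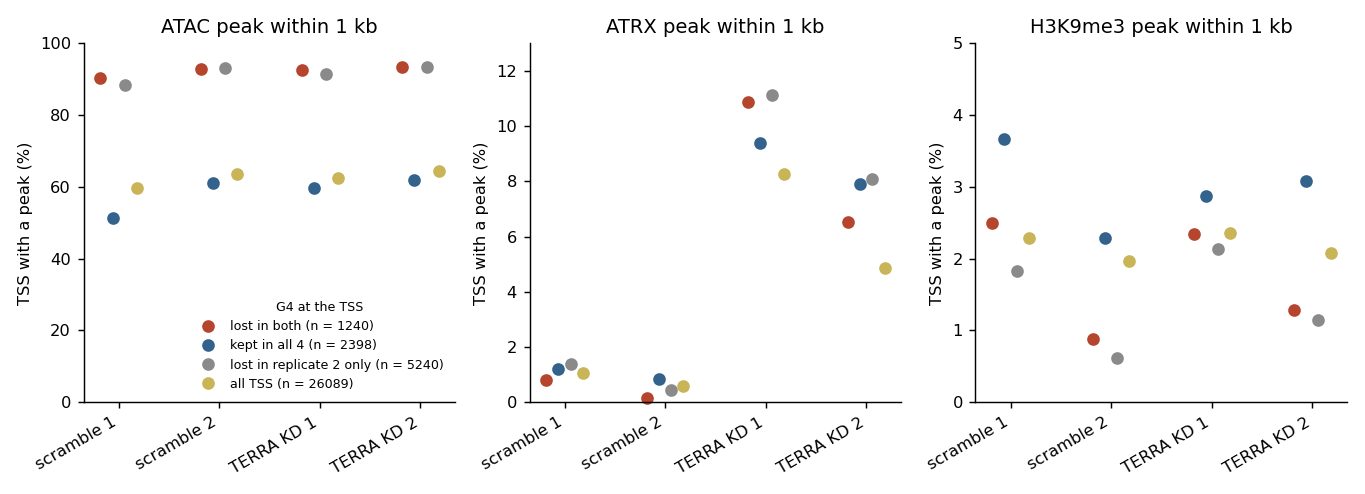
Percent of TSS with an ATAC, ATRX or H3K9me3 peak within 1 kb (y, linear, different ranges) in each library (x); each point is a class in a library, with the number of TSS in the key. Members lie at 90.5% to 93.3% for ATAC, beside the TSS that lost G4 in replicate 2 only, and for ATRX at under 1% in scramble KD and at 10.9% and 6.53% in TERRA KD, with the other classes.

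Among genes tied to ATRX and H3K9 methylation, 4 of 20 listed were members, all 4 accessible in every ATAC list and without ATRX or H3K9me3. Across all 26089 TSS, 4.75% were members. H3f3a encodes histone H3.3, the histone that ATRX and DAXX deposit. Its G4 peak held 8 and 37 tags in scramble KD, and the nearest TERRA KD G4 peak was 12601 bases away. Hira, the chaperone for H3.3 in active chromatin, had 4 and 25 tags. Suv39h1 and Suv39h2, the methyltransferases of heterochromatic H3K9, had 8 and 17 tags and 10 and 19 tags. In replicate 2 the Suv39h2 peak was among the weakest of its list, at the 0.910th percentile. Of this list, 9 genes had G4 in both scramble KD lists, 5 lost it in replicate 2 only and none kept it in all 4.

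Among shelterin and telomerase genes, 2 of 18 were members (11.1%, against 4.75% of all TSS), 2 lost G4 in replicate 2 only and 1 kept it. In all, 5 of these genes had G4 in both scramble KD lists. Terf2, the shelterin protein that protects chromosome ends, had peaks of 7 and 36 tags, 12.1-fold and 5.10-fold, with ATAC peaks at the 78.4th to 91.1st percentile. The microRNA gene Mir7075, which starts downstream of it on the same strand, was a member through the same peaks. Terc, the telomerase RNA, had 6 and 31 tags and an ATAC peak in both replicate 2 libraries only, and its replicate 1 summit lay upstream, at −1112 bases from the TSS. In the list of core pluripotency genes, 1 of 26 (3.85%) was a member. This was Tdgf1, a Nodal co-receptor, with 5 and 20 tags and ATAC peaks at the 79.5th to 93.6th percentile. Of this list, 10 genes had G4 in both scramble KD lists, 8 lost it in replicate 2 only and none kept it in all 4. No member was found among 21 G4 helicases and binding proteins or 15 genes with a classically described promoter quadruplex, of which 8 and 6 lost G4 in replicate 2 only. G4 in both scramble KD lists was present at 9 and 8 of these genes. Over all TSS with G4 in both, 13.7% were members. These lists are small and were not tested against that share.

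Of 16 genes shown as examples by the study, and therefore not independent of these samples, 3 were members (18.8%, against 4.75% of all TSS). In this list 12 genes had G4 in both scramble KD lists, 2 kept it in all 4 and 7 lost it in replicate 2 only. Members were 25% of these 12, against 13.7% over all genes, a difference that was not tested. Nfe2l2 is the transcription factor of the oxidative stress response. By the lower of both percentiles (70.4), its G4 peaks ranked highest among the 10 members of this and the preceding exact gene lists. They held 15 tags (16.3-fold) and 56 tags (4.60-fold), and these folds were not the highest among those members. Cxcl14, a chemokine, had 9 and 43 tags and an ATRX peak of 4 tags in TERRA KD replicate 1 only. Dnajb6, a co-chaperone, had 4 and 29 tags. Neither Dnajb6 nor Nfe2l2 had an ATRX peak within 1 kb in any list. The nearest ATRX peaks to Nfe2l2 in TERRA KD lay 36541 and 24830 bases away. For Nfe2l2 the study shows raised ATRX coverage near the TSS, a measure not used here. All 3 members had ATAC peaks in every list. Those of Nfe2l2 lay at the 94.9th to 97.4th percentile and those of Cxcl14 between the 26.3rd and the 84.3rd.

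**Figure D5:**
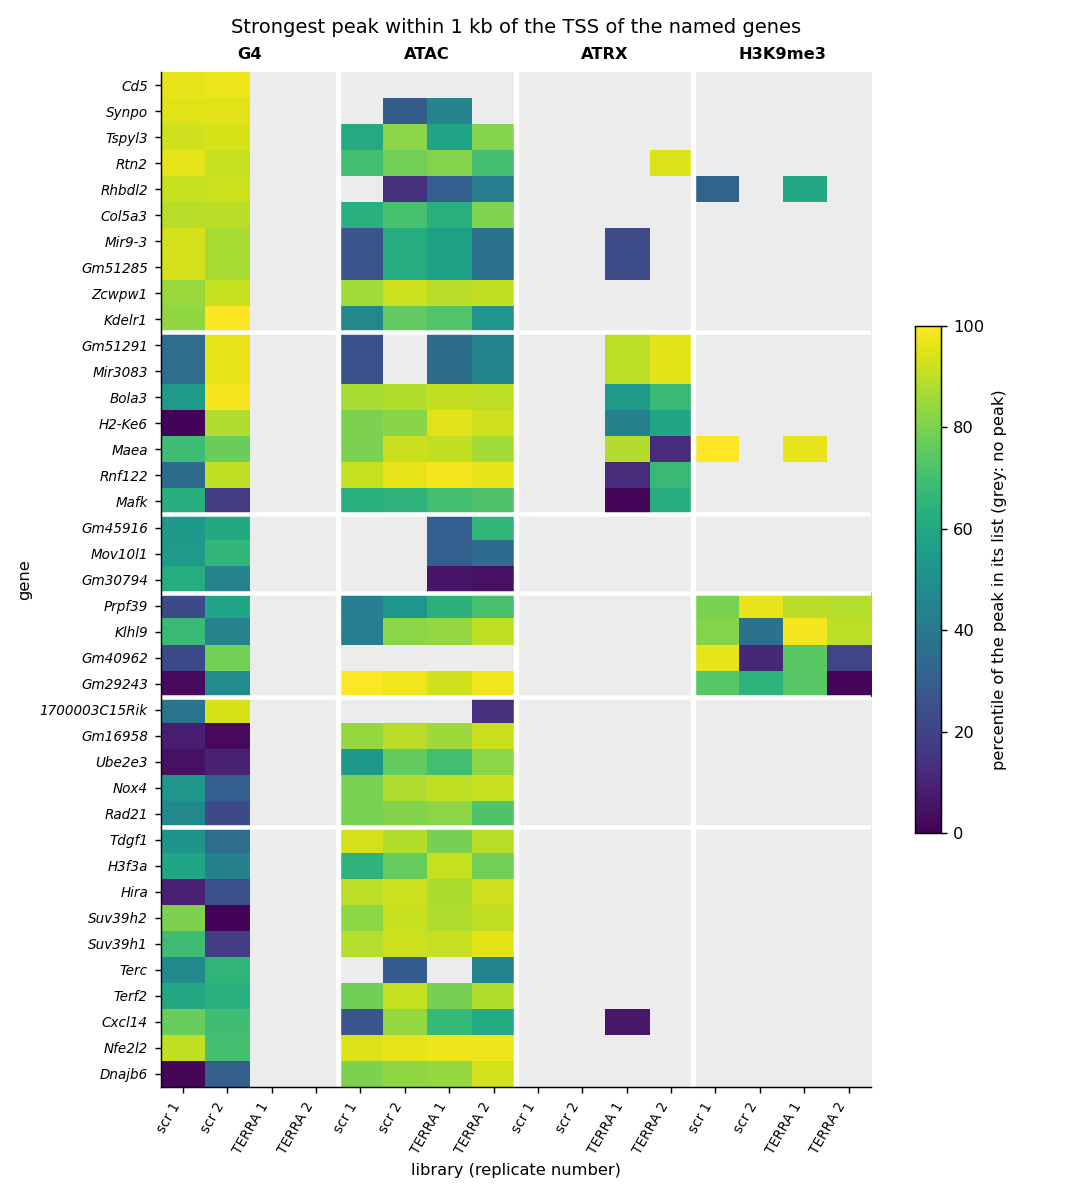
Percentile of the strongest peak within 1 kb of the TSS (colour, 100 is the strongest of its list; grey, no peak) for members (rows) in the 16 libraries (columns, by assay and replicate). From the top, the blocks hold the members with the strongest G4, those that gained ATRX in both replicates, gained ATAC in both, had H3K9me3 in all 4 lists, lay farthest from a TERRA KD G4 peak, and belong to the gene lists; the G4 columns are filled only in scramble KD by the rule, and most rows are filled in all 4 ATAC columns.

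Larger gene families, grouped by their symbols, were among the members at shares from 0% to 9.48%, around the 4.75% of all TSS. Ubiquitin ligases and proteases had 31 of 327 (9.48%), with Rnf14, Ube2j2, Usp10 and Fbxl19 having the strongest G4. Splicing factors had 6 of 66 (9.09%), among them Srsf9 and Hnrnph3. Symbols of histone genes had 10 of 143 (6.99%), including the replication-dependent H3c15 and H2bc7 and the variant H2ax, which marks DNA breaks when phosphorylated. This pattern of symbols also took H2-T22 and H2-Ke6, which encode no histones. In the same way the patterns for lineage factors and small GTPases took Foxred2, an oxidoreductase, and Rhox4e, a homeobox gene, as members. Solute carriers had 20 of 353 (5.67%), mitochondrial proteins 10 of 192 (5.21%), small GTPases and their regulators 11 of 214 (5.14%) and Hox clusters 2 of 39 (5.13%), namely Hoxa7 and Hoxb5. Cytosolic ribosomal proteins had 4 of 83 (4.82%): Rps10, Rps24, Rps25 and Rpl32.

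Below the share of all TSS were the Zfp genes (16 of 401, 3.99%), developmental signalling genes (4 of 107, 3.74%, with the growth factors Bmp4 and Fgf18), lineage transcription factor families (7 of 194, 3.61%, with Gata3, Sox3, Tbx2 and Six6) and cell cycle and replication genes (3 of 86, 3.49%, with Ccna2, a cyclin of S phase). MicroRNA and small nucleolar RNA genes had 19 of 1305 (1.46%), olfactory and vomeronasal receptors 5 of 1482 (0.337%) and clustered protocadherins none of 58. Many family members had no G4 peak in the first place. As a share of the TSS with G4 in both scramble KD lists, 13.7% over all genes, members made up 4 of 12 ribosomal proteins, 10 of 36 histone symbols, 6 of 22 splicing factors, 31 of 154 ubiquitin genes, 7 of 129 symbols of lineage transcription factors, 4 of 78 developmental signalling genes and 2 of 26 Hox genes. Among lineage factors and Hox genes, 95 and 23 lost G4 in replicate 2 only. These counts describe the families and were not tested.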

How the data were processed

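The 16 peak lists deposited by the authors, 1 per library, were used as deposited. Per the labels and the study's methods, reads were trimmed (Trim Galore 0.5.0), aligned to GRCm38/mm10 (Bowtie2 2.3.4.1), cleared of duplicates (SAMtools 1.9) and called per library at a p of 0.01. Per the file headers, the callers were MACS 1.4.2 for G4, 1.4.3 for ATRX and H3K9me3, each against input, and 2.2.7.1 for ATAC without input. Both G4 replicates of a condition had the same number of input tags. Reads of both parental alleles were placed on 1 reference.

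For G4, ATRX and H3K9me3 the deposited lists give the tag count of each peak, a score from which the −log10 of its p was taken, and the fold enrichment, a ratio to the local background. The deposited false discovery rate in percent was not used. For ATAC the deposited columns are the pileup signal, the −log10 p and q and the fold enrichment. None is scaled between libraries, so each peak was ranked within its list, by −log10 p and then fold.

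A peak was at a TSS when any base lay within 1 kb. TSS came from 45657 RefSeq transcripts. Shares of TSS were compared with the library as the unit: TERRA KD against scramble KD by a two-sided exact permutation test, classes by a two-sided exact sign-flip test. TSS and genes were not treated as replicates. Nothing in the labels says that ATRX, H3K9me3 and ATAC libraries came from separate cultures, so the p-values measure the spread between these libraries. Genes were named by a fixed rule: the 10 strongest G4 (by the lower of both percentiles), ATRX gained in both replicates, ATAC lost or gained in both, H3K9me3 in all 4 lists, the 5 farthest from TERRA KD G4, members of the exact gene lists, and those nearest the limit. The stronger family examples and the motifs at Terf2, Cxcl14, H3f3a and Hira were chosen after their values were seen. Some genes that met the rule are not reported here. The members and lists were chosen with earlier results of these data known. The class and motif searches were tested on simulated data. Alternatives were other windows, summits, stricter or equally long lists, NM_ genes and left-out replicates. Python 3.11.15, pandas 2.3.3 and numpy 2.4.6 were used.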

Additional observations from a re-analysis of the deposited data

How the results depend on the processing

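No test could reach 0.05 in this design, so a result kept or changed only its direction. The ATAC level, rank and change at members and the ATRX difference at members kept theirs under every alternative run, but not their size. The ATAC level difference of 33.8 points fell to 2.39 with the G4 rule on replicate 1 alone. Against TSS lost in replicate 2 only it was 0.735. The ATRX difference of 8.23 points fell to 0.0403 with ATRX peaks of −log10 p of at least 5. The member count was 131 with scramble KD G4 peaks of −log10 p of at least 5, 749 with the same number of top-ranked G4 peaks in each list, and 2116 to 11425 with the rule on 1 replicate; 967 to 1315 under the other settings. The ATRX change at members minus that at kept TSS turned to −0.640 (500 bp window), −0.579 (2 kb), −0.731 (ATRX peaks of −log10 p of at least 5) and −1.30 (equal ATRX lists), to −0.546 with the G4 rule on replicate 1 alone and to −0.467 against TSS lost in replicate 2 only, and ran from −0.718 to 1.91 without 1 replicate. The ATRX level difference turned to 0.518 (summits), 1.18 (equal G4 lists), 0.0348 (NM_ genes) and 0.807 (G4 rule on replicate 2 alone), and ran from −1.03 to 0.551 without 1 replicate. The H3K9me3 change at members turned to −0.0403 (500 bp) and −0.763 (stricter scramble KD G4 peaks), with −0.161 to 0.403 without 1 replicate. Its difference from kept TSS turned to −0.00985 (500 bp), −0.387 (2 kb), −0.581 (stricter scramble KD G4 peaks), −0.0236 (H3K9me3 peaks of −log10 p of at least 5), −0.100 (G4 rule on replicate 1 alone) and −0.299 (against TSS lost in replicate 2 only), with −0.389 to 0.631 without 1 replicate. The H3K9me3 level difference turned to 0.0393 and 0.323 under these last 2 settings. The cause was not tested. The settings with the rule on 1 G4 replicate and the other compared class were chosen after seeing the data.

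With the replicate number as a replicate block, the differences were as before (1.25 points for ATAC, 8.23 for ATRX and 0.121 for H3K9me3 at members) and the smallest exact p was 0.500. The sample titles join libraries across the groups only by a replicate number. Deviations of same-numbered libraries over 1 Mb stretches correlated at 0.525 for G4, 0.108 for ATAC, 0.0538 for ATRX and 0.266 for H3K9me3. Whether same-numbered libraries shared a batch was not tested. In scramble KD replicate 1, the library with the fewest tags, the members' peaks rested on a median of 6 tags, which limits their precision.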
